A study of Mus musculus with 6 samples.

Results

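The surface proteins described here are 9 receptors that blood progenitors use to find and hold their place in the marrow. They are the chemokine receptor gene Cxcr4, the hyaluronan receptor gene Cd44 and 7 integrin subunit genes, Itga4, Itga5, Itga6, Itgb1, Itgb2, Itgal and Itgam. They were taken by gene symbol from the deposited table, which held all 9 among 56748 genes. Ribosome profiling was done on Lin-c-Kit+ mouse cells, sorted without mature lineage markers and with the Kit receptor. The labels name them hematopoietic stem cells, although this gate also takes in committed progenitors. The 6 libraries formed 2 groups of 3, one from WT mice and one from Mov10 knockout (Mov10 KO) mice. Both groups were taken 12 days after 4.5 Gy of irradiation, so the controls were irradiated too, and no unirradiated group is analysed here. The labels give neither the age, sex and strain of the mice, nor how the knockout was made, nor which antibodies made up the lineage gate, nor whether a library is 1 animal or a pool. The p-values may therefore measure only technical spread between libraries.

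Integrins are pairs of an alpha and a beta subunit that bind matrix or other cells and are switched on from inside the cell. In progenitors, Itgb1 pairs with Itga4, Itga5 or Itga6 to bind VCAM1 and fibronectin, fibronectin, or laminin, and Itgb2 pairs with Itgal or Itgam to bind ICAMs or, for Itgam, also complement and fibrinogen. CXCR4 is the receptor for the stromal chemokine CXCL12, which draws progenitors to the marrow and raises integrin adhesion, while CD44 holds hyaluronan and, in some glycoforms, selectins. Ribosome footprints on a gene count the mRNA fragments shielded by ribosomes, so they move with mRNA level and with translation alike, and these cannot be told apart here. Fewer cells that make a receptor and less of it per cell cannot be told apart either.

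The knockout libraries had fewer footprints on Cd44 and Cxcr4 and more on Itga6 and Itgal. The partner beta chains Itgb1 and Itgb2, the alpha chains Itga4 and Itga5, and the sparsely read Itgam did not pass the test. A gene was called when its adjusted p was under 0.05 in limma, fitted on log2(value + 1) to the 17114 genes whose mean reached 1 normalized read, with Benjamini-Hochberg adjustment. All 9 genes passed this filter. Of the 9, 2 were called higher, where 10.3% of all tested genes were, and 2 were called lower, where 10.9% were. All but Itgam are read more than most tested genes, so these shares come from genes unlike them. Of the 6307 genes with a mean of at least 50, fitted alone, 1532 were called higher and 1158 lower. The 8 receptor genes in that fit had 2 higher and 2 lower calls. The libraries of the genotypes did not overlap in 6 of the 9, with 2 higher and 4 lower, against 16.9% and 22.9% of all tested genes. Each of these shares rests on few genes. The median log2 fold change of the 9 was -0.14, next to -0.17 for all genes tested and 0.0094 for those with a mean of at least 50. Over all tested genes 48.4% of the calls were higher with the deposited scaling and 30.8% with library totals.

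Each WT library held 2260348 to 2499634 reads and each knockout library 1118345 to 1352517, so depth and genotype went together. The targeted gene, Mov10, an RNA helicase gene of the silencing machinery, had 110.4, 106 and 104 normalized reads in the WT libraries and 51.0, 89.0 and 46.3 in the knockout libraries. It was lower in 3 of 3 knockout libraries but did not pass (adjusted p = 0.0598 in limma). Without knockout replicate 2, its highest knockout library, it passed (adjusted p = 0.00692). Kit, the receptor that defines the gate, averaged 1099 ± 15.8 normalized reads over the WT libraries and 1122 ± 35.7 over the knockout libraries (SD, n = 3 each). Its groups overlapped, and its log2 fold change lay between -0.12 and 0.18 (95% confidence interval).

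**Figure D1:**
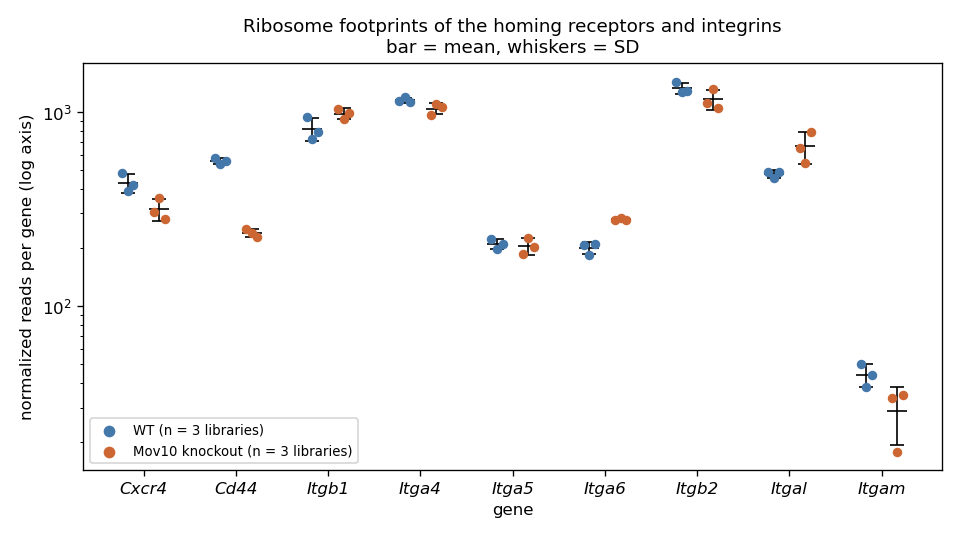
Normalized reads (log axis) of each of the 9 genes in each library, with WT in blue and Mov10 knockout in orange, bars for the mean and whiskers for the SD of 3 libraries. Cd44 shows the widest gap between the genotypes, from 559.8 to 239, and Itgam lies far below the other genes, at 44.1 and 28.7.

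Cd44 was the receptor gene with the largest called change. It had 582, 538 and 560.1 normalized reads in the WT libraries and 251, 238 and 227 in the knockout libraries. The groups did not overlap, and every knockout library lay far below every WT library. The means were 559.8 ± 22.1 and 239 ± 11.8 (SD, n = 3 each), so the knockout stood at 0.426 of WT, and the fitted log2 fold change was -1.23 (SE 0.10, limma adjusted p = 0.000100). The spread between libraries was 3.94% of the mean in WT and 4.95% in the knockout, where read counting alone would give 3.40% and 7.82%. The call held in all 17 alternatives, with log2 fold changes from -1.46 to -1.19 and adjusted p of up to 0.0115. Cd44 lies on chromosome 2, 102641486 to 102732010 (GRCm39, minus strand). An unnamed lncRNA gene on its opposite strand had at most 4.34 normalized reads in any library.

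Cxcr4 had 486, 392 and 420.4 normalized reads in the WT libraries and 306, 361 and 281 in the knockout libraries. All knockout libraries were below all WT libraries, but by a narrow margin, since knockout replicate 2 came close to WT replicate 2. The means were 433 ± 48.2 and 316 ± 40.9 (SD, n = 3 each), 0.730 of WT, and the log2 fold change was -0.45 (SE 0.13, limma adjusted p = 0.0426). The call held without knockout replicate 2. It was lost without WT replicate 1, 2 or 3 and without knockout replicate 1 or 3 (adjusted p = 0.177, 0.0918, 0.141, 0.0721 and 0.0759). Upper-quartile scaling, no filter and no variance trend lost it too (limma adjusted p = 0.0650, 0.0645 and 0.210). Cxcr4 lies on chromosome 1, 128515936 to 128520030 (GRCm39, minus strand).

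Cxcr4 and Cd44 are the receptor genes called lower, and the stretch of 250 bases before the start of each is shown to put the genes beside their regulatory sequence. The sequences come from RefSeq with coordinates on GRCm38.p6, a build other than that of the table. They are written 5′ to 3′ along the minus strand, at chr1:128592300-128592549 for Cxcr4 and chr2:102901666-102901915 for Cd44. Capitals mark matches, on either strand, to a TATA box (TATAAA), a GC box (GGGCGG) or a CCAAT box (CCAAT).
Cxcr4: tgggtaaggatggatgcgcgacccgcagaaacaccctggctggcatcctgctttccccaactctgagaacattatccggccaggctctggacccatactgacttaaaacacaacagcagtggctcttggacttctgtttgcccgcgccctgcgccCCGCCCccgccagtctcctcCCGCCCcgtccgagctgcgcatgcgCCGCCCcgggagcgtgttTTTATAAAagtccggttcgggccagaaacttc
Cd44: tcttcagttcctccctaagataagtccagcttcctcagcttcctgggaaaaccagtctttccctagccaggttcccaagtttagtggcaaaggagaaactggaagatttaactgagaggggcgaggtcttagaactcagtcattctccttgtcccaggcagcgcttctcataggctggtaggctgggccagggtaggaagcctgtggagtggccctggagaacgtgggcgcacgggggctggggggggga
The Cxcr4 stretch held overlapping TATA box matches on both strands, starting 32 and 30 bases before the start, and GC boxes starting 95, 75 and 50 bases before it. The Cd44 stretch held none of the 3 letter groups. Among 32851 RefSeq promoter stretches of the same length, 12.4% held a TATA box, 32.7% a GC box and 33.9% a CCAAT box. A match is a description of letters, and these libraries do not measure binding or transcription. Of the 9 genes 6 had a promoter entry.

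**Figure D2:**
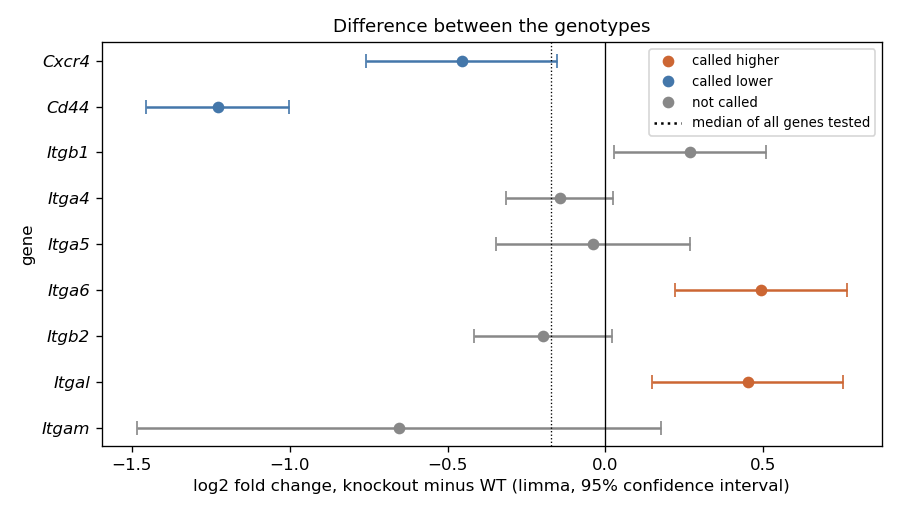
Log2 fold change (knockout minus WT) of each gene from limma, with 95% confidence intervals, coloured by call; the dotted line is the median of all genes tested, -0.17. Cd44 stands at -1.23, Cxcr4 at -0.45, Itga6 at 0.49 and Itgal at 0.45, and the interval of Itgam is the widest.

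Among the beta 1 integrin genes Itga6 was the one called. Itga6 encodes the alpha 6 chain of laminin receptors. It had 206, 182 and 209 normalized reads in the WT libraries and 278, 285 and 278 in the knockout libraries. The knockout libraries lay close together and all above WT, with means of 199 ± 14.7 and 280.0 ± 4.02 (SD, n = 3 each), 1.41-fold apart, and a fitted log2 fold change of 0.49 (SE 0.12, limma adjusted p = 0.0213). The knockout SD of 1.44% was smaller than the 7.22% that read counting alone gives. Without WT replicates 1, 2 and 3 in turn the adjusted p was 0.0698, 0.102 and 0.0766. It was 0.142 with library totals, 0.0619 after cyclic loess, 0.134 with no variance trend and 0.0504 with the replicate number as a block.

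Itgb1, the beta 1 chain shared by the 3 alpha chains, stood at 937, 729 and 786 normalized reads in WT libraries and at 1041, 914 and 985 in knockout libraries. WT replicate 1 lay within the knockout range, so the groups overlapped. The log2 fold change was 0.27 with a 95% interval of 0.03 to 0.51 and did not pass (limma adjusted p = 0.110). After cyclic loess, which evens out trends with abundance, it was -0.14. Itga4, the alpha 4 chain that binds VCAM1 and fibronectin, was read most among the alpha chains. It stood at 1139, 1187 and 1119 normalized reads in WT libraries and at 966, 1095 and 1059 in knockout libraries. The groups did not overlap, yet the log2 fold change of -0.14 (95% interval -0.31 to 0.03) did not pass (limma adjusted p = 0.209). With library totals it was -0.38 and after cyclic loess -0.60, and both passed (adjusted p = 0.00948 and 0.00108). Cerkl overlaps Itga4 on the opposite strand and had 23.2 normalized reads at most.

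Itga5, the alpha 5 chain of the fibronectin receptor, stood at 221, 196 and 209.9 normalized reads in WT libraries and at 185, 225 and 201 in knockout libraries. All WT libraries lay within the knockout range, with a log2 fold change of -0.04 and a 95% interval of -0.35 to 0.27. Summed over Itgb1 and its 3 alpha chains, WT held 2374 ± 113 normalized reads and the knockout 2504 ± 30.2 (exact two-sided permutation p = 0.2).

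In the beta 2 integrin genes, Itgal was the one called. Itgal encodes the alpha L chain of LFA-1, the leukocyte receptor for ICAMs. It had 492, 456 and 492 normalized reads in the WT libraries and 650.4, 548 and 792 in the knockout libraries. All knockout libraries lay above WT but differed widely among themselves, with an SD of 18.4% of the mean against 4.68% from read counting. The means were 480.0 ± 20.8 and 663 ± 122 (SD, n = 3 each), 1.38-fold apart, and the log2 fold change was 0.45 (SE 0.13, limma adjusted p = 0.0441). The call was lost without WT replicate 1, 2 or 3 and without knockout replicate 1 or 3 (adjusted p = 0.131, 0.177, 0.143, 0.0742 and 0.0622). It was also lost with library totals (log2 fold change 0.22, adjusted p = 0.253) and after cyclic loess (0.14, adjusted p = 0.488). No filter, a pseudocount of 0.1 and no variance trend lost it too (limma adjusted p = 0.0626, 0.0569 and 0.230).

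Itgb2, the beta 2 chain, was the most read of the 9 genes. It stood at 1429.6, 1264 and 1287 normalized reads in WT libraries and at 1114, 1313 and 1053 in knockout libraries. Knockout replicate 2 lay within the WT range, and the log2 fold change of -0.20 (95% interval -0.42 to 0.02) did not pass (limma adjusted p = 0.186). Without that library it was -0.29 and passed (adjusted p = 0.0423), as it did with library totals (-0.43, adjusted p = 0.0143) and after cyclic loess (-0.68, adjusted p = 0.00129).

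Itgam encodes the alpha M chain (CD11b), which marks mature myeloid cells and is commonly part of lineage gates. It was read least, with 77, 62 and 65 reads in the WT libraries and 25, 11 and 24 in the knockout libraries, or 44.1 ± 5.97 against 28.7 ± 9.45 normalized reads (SD, n = 3 each). The groups did not overlap, but the log2 fold change of -0.65 had a 95% interval of -1.48 to 0.18 and did not pass (limma adjusted p = 0.243). The spread between the knockout libraries was 32.9% of their mean, where read counting alone gives 22.4%. Without knockout replicate 2 the log2 fold change was -0.35. Gm49368, a predicted gene on the same strand (chromosome 7, 127661855 to 127727332), spans nearly all of Itgam (127661812 to 127717663, GRCm39) and is listed at 0 in every library. How reads lying in both were counted is not given in the sources used here, and what part of the Itgam level this touches is not known. Over Itgb2, Itgal and Itgam together, WT held 1851 ± 109 and the knockout 1853 ± 46.9 normalized reads (exact two-sided permutation p = 1). The 9 genes together held 5217 ± 291 and 4910.4 ± 86.3 (p = 0.2 by the same exact test).

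An integrin alpha chain reaches the surface with its beta partner, so the ratio of the 2 chains was taken within each library, where the scaling factor of the library cancels. Itgal against Itgb2 stood at 0.344, 0.361 and 0.382 in WT and at 0.584, 0.417 and 0.751 in the knockout. All knockout ratios lay above all WT ratios, by 1.57-fold in the mean of the log2 ratios, as for the folds that follow. Itgb1 against Itgb2 stood at 0.656, 0.577 and 0.610 in WT and at 0.934, 0.696 and 0.935 in the knockout, again without overlap and 1.38-fold apart. Itga4 against Itgb1 lay the other way, at 1.21, 1.63 and 1.42 in WT and at 0.928, 1.20 and 1.07 in the knockout, 1.33-fold apart. Itga6 against Itgb1 stood at 0.220, 0.250 and 0.266 in WT and 0.267, 0.312 and 0.282 in the knockout, 1.17-fold apart with the groups almost touching. Each of these 4 ratios reached the smallest p that this test can give with 3 against 3 libraries (exact two-sided permutation p = 0.1, adjusted p = 0.15 over 6 ratios), so none could pass 0.05 in it. The ratios of Itga5 to Itgb1 and of Itgam to Itgb2 overlapped between the genotypes (exact permutation p = 0.2 for each). With any 1 library left out, the log2 differences of all 6 ratios kept their sign, though that of Itgam to Itgb2 shrank from -0.48 to -0.07 without knockout replicate 2.

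**Figure D3:**
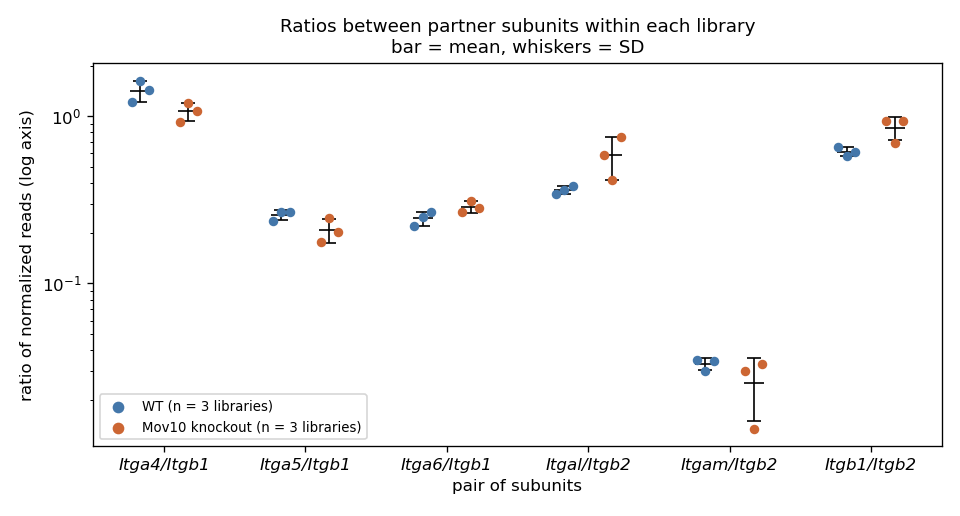
Ratio of normalized reads (log axis) between partner subunits, and between the 2 beta chains, in each library, with WT in blue, knockout in orange, bars for the mean and whiskers for the SD of 3 libraries. Itgal over Itgb2 and Itgb1 over Itgb2 are higher in all knockout libraries, and Itga4 over Itgb1 is lower in all.

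To compare levels between genes, normalized reads were divided by the gene length in the table, in kilobases. That length may hold untranslated parts where ribosomes seldom sit, so the order is approximate. In WT the order was Itgb2 (435 ± 29.4 normalized reads per kilobase), Cxcr4 (239 ± 26.7), Itgb1 (200.3 ± 26.4), Cd44 (82.6 ± 3.26), Itga4 (82.2 ± 2.53), Itgal (73.1 ± 3.17), Itga5 (42.4 ± 2.60), Itga6 (21.8 ± 1.60) and Itgam (8.78 ± 1.19). Cxcr4 and Itgb1 overlapped between libraries, and so did Cd44 and Itga4, while the other neighbours did not. In the knockout Itgb1 (240.1 ± 15.6) stood above Cxcr4 (175 ± 22.6), and Cd44 (35.2 ± 1.74) stood below Itgal (101 ± 18.6), Itga4 (74.4 ± 4.78) and Itga5 (41.3 ± 4.06). By this gene length both beta chains were read more per kilobase than any of their alpha chains in both genotypes. For Itga4 and Itgb1 that order rests on the lengths, 13978 and 4081 bases. Before the division Itga4 had the higher mean, 1148 against 817 normalized reads in WT and 1040 against 980 in the knockout. Coding lengths were not at hand, so the order of these chains per coding length is not known.

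**Figure D4:**
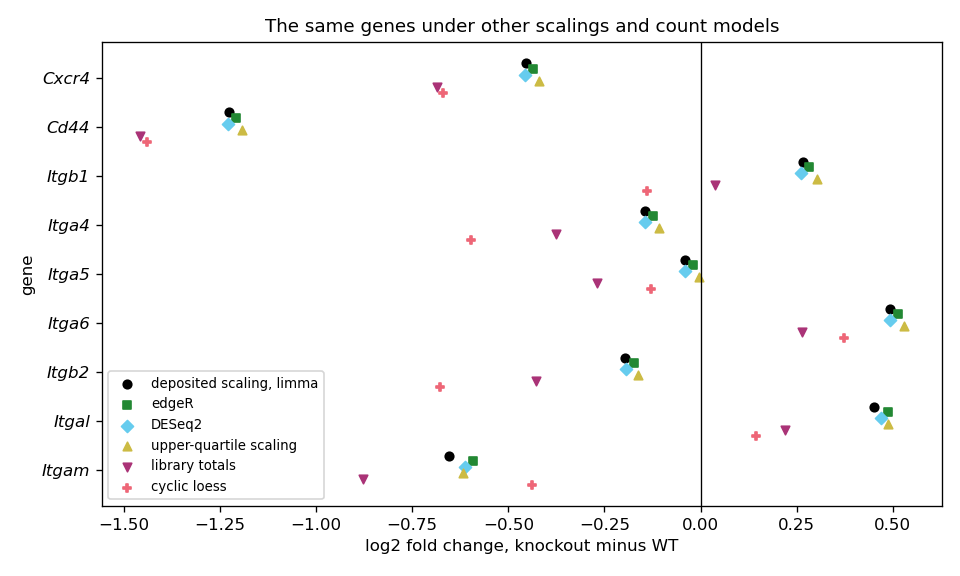
Log2 fold change (knockout minus WT) of the 9 genes with the deposited scaling in limma and under 5 alternatives, one marker each. Cd44 lies between -1.46 and -1.19 in all of them. Library totals and cyclic loess place every gene but Itgam, Cd44 included, lower than the other settings shown do. Itgam is lowest with library totals, -0.88, and highest after cyclic loess, -0.44.

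The other integrin subunits were 19 genes, of which 17 were tested, 4 were called higher and 0 lower by limma (4 and 2 at an unadjusted p under 0.05; edgeR and DESeq2 also called 4 and 0). Over all tested genes 10.3% were called higher and 10.9% lower. In the fit of genes with a mean of at least 50, 1532 of 6307 were higher and 1158 lower. The counts of this list and of the lists below stand beside these shares. In that fit 6 of these subunits were tested, with 4 higher and 0 lower. Itgb3, the beta chain of platelet and vitronectin receptors, was 1.88-fold higher in the knockout (271 ± 20.6 against 144 ± 7.73, adjusted p = 0.00234). Its alpha partners Itgav and Itga2b were 1.41-fold and 1.53-fold higher (limma adjusted p = 0.0348 and 0.0351). Itgb7, the second beta partner of Itga4, rose from 713 ± 37.4 to 1136 ± 221 (limma adjusted p = 0.0132). The calls of Itgav, Itga2b and Itgb7 were lost in 8, 7 and 6 of 17 alternatives. With library totals 1 subunit was higher and 2 were lower. After cyclic loess, with no variance trend and without WT replicate 1, 2 or 3, 1 was higher. Itgb3 kept its call in all 17 alternatives.

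Of 27 ligand genes 22 were tested, with 5 higher and 2 lower, where 10.3% and 10.9% of all tested genes were. In the fit of genes with a mean of at least 50, 8 were tested, with 5 higher and 1 lower. Vcam1 and Fn1, ligands of the alpha 4 beta 1 receptor, were both 1.44-fold higher, at 1857 ± 113 and 1764 ± 88.6 in the knockout. C3, the complement protein whose fragment binds Itgam, rose from 1354 ± 140.0 to 2038 ± 139, and Thbs1, a platelet and matrix protein, 1.79-fold. Vcam1, Fn1 and C3 did not pass after cyclic loess or with no variance trend (adjusted p of up to 0.999, 0.921 and 0.739). Fgb, a fibrinogen chain, had no read in WT and 8.05, 3.23 and 2.89 normalized reads in the knockout. In knockout replicates 2 and 3 this lies under the worth of 3 reads, 4.85 and 4.34. Icam2, a ligand of Itgal, was 1.76-fold lower, a call lost in 11 of 17 alternatives. Mif, a cytokine that binds CXCR4, had 2.58 ± 0.611 in WT and no read in the knockout, where 3 reads are worth more than the WT level, so no fold is given. The list median was 0.53, against -0.17 for all genes. It includes genes with few reads, since 8 of the 22 reached a mean of 50 normalized reads.

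Integrins are switched on from inside the cell by talin and kindlin, which bind the beta tail. The list of 23 genes for this step holds genes that drive it and genes that restrain it, so its counts give no direction of activation. Of these 22 were tested, with 4 higher and 4 lower, where 10.3% and 10.9% of all tested genes were. In the fit of genes with a mean of at least 50, 18 were tested, with 4 higher and 4 lower. Tln1, the talin of blood cells, rose from 2243 ± 166 to 3966 ± 115, 1.77-fold (adjusted p = 8.22e-05), and Fyb, an adaptor of integrin activation, rose 2.39-fold. Flna, an actin crosslinker that binds beta tails, was 1.46-fold higher and Skap2, an adaptor, 1.43-fold. After cyclic loess Tln1 did not pass (adjusted p = 0.104) and the sign of Flna turned. Lower were Apbb1ip, which links Rap1 to talin, by 2.28-fold, Rasa3, which restrains Rap1 in platelets, by 1.43-fold, Rassf5, a Rap1 effector, by 1.74-fold, and Fermt3, the kindlin of blood cells, from 466 ± 18.8 to 372 ± 21.5. Apbb1ip and Fyb kept their calls in all 17 alternatives, while those of Skap2, Fermt3 and Rassf5 were lost in 9, 9 and 11. Without WT replicates 1, 2 and 3, and likewise with no variance trend, 1 gene was lower, and the list median was -0.37.

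Signalling from bound integrins runs through kinases and actin linkers. Of 30 genes 28 were tested, with 9 higher and 4 lower, where 10.3% and 10.9% of all tested genes were. In the fit of genes with a mean of at least 50, 24 were tested, with 11 higher and 3 lower. The list median was 0.27. Vcl, the linker of talin to actin, rose from 304 ± 3.76 to 1013 ± 60.6, 3.33-fold (adjusted p = 9.62e-06), and Cdc42, a small GTPase that shapes actin, 2.72-fold. Actn4, an actin crosslinker, was 1.48-fold higher and Fgr, a Src kinase, 1.90-fold. Lower were Lyn, another Src kinase, by 2.00-fold, Lims1 and Parvg of the complex with integrin-linked kinase by 1.93-fold and 1.52-fold, and Crk, an adaptor, by 2.32-fold. With library totals the counts were 4 higher and 8 lower, and after cyclic loess 5 and 7. Without 1 of the WT replicates they were at most 4 higher and 1 lower. Vcl and Cdc42 kept their calls in all 17 alternatives.

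The 26 genes of CXCR4 signalling and turnover had 25 tested, 8 higher and 5 lower, with a list median of -0.09. Of all tested genes 10.3% were higher and 10.9% lower. In the fit of genes with a mean of at least 50, 21 of the list were tested, with 8 higher and 5 lower. Cd74, a partner of CXCR4 in binding MIF and better known as the MHC class II invariant chain, rose from 610.4 ± 44.8 to 1811 ± 152, 2.97-fold. Gnb1 and Gnai2, subunits of the G protein that CXCR4 uses, rose 2.60-fold and 2.16-fold, and Dock2, a Rac activator in migrating leukocytes, 1.47-fold. Lower were Elmo1, the partner of Dock2, by 2.03-fold, Gnai3, another G protein alpha chain, by 1.60-fold, the arrestin Arrb1 by 1.65-fold, and Itch, the ubiquitin ligase that sends CXCR4 to lysosomes, by 1.81-fold. The other arrestin, Arrb2, went the other way, from 394 ± 6.72 to 670 ± 98.1, 1.70-fold higher (limma adjusted p = 0.00316). Grk6 of this list was also called higher, by 1.47-fold, and Gng2 lower, by 2.13-fold (limma adjusted p = 0.00307 and 0.0370). The calls of Elmo1 and Gnai3 were lost without WT replicate 1, 2 or 3, and that of Itch without WT replicate 2 or 3. The call of Dock2 was lost after cyclic loess and with no variance trend (adjusted p of up to 1.00). The list had 6 higher and 9 lower calls under library totals, 5 and 6 under cyclic loess, and 3 and 2 with no variance trend.

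Of 33 selectin, selectin ligand and other homing genes, all tested, 3 were higher and 8 lower, with a list median of -0.50. Of all tested genes 10.3% were higher and 10.9% lower. A mean of 50 normalized reads was reached by 19 genes of the list, and the fit of such genes called 5 higher and 5 lower. Hmmr, another hyaluronan receptor, was 1.60-fold higher and the tetraspanin Cd9 1.64-fold. Lower were Cd47, the signal that spares cells from phagocytosis, from 708 ± 45.3 to 377 ± 86.4, St3gal4, a sialyltransferase that builds selectin ligands, by 3.58-fold, and Ezr, which ties CD44 to actin, by 1.57-fold. Esam, an adhesion molecule of stem cells and endothelium, had 7.30 ± 1.13 normalized reads in WT and none in the knockout, at least 1.66-fold lower against a floor of 3 reads per library. Without WT replicates 1, 2 and 3 the lower calls of this list fell to 2, 3 and 2, and at most 1 gene was called higher. The call of Cd9 was lost in 6 of 17 alternatives, these 3 among them.

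**Figure D5:**
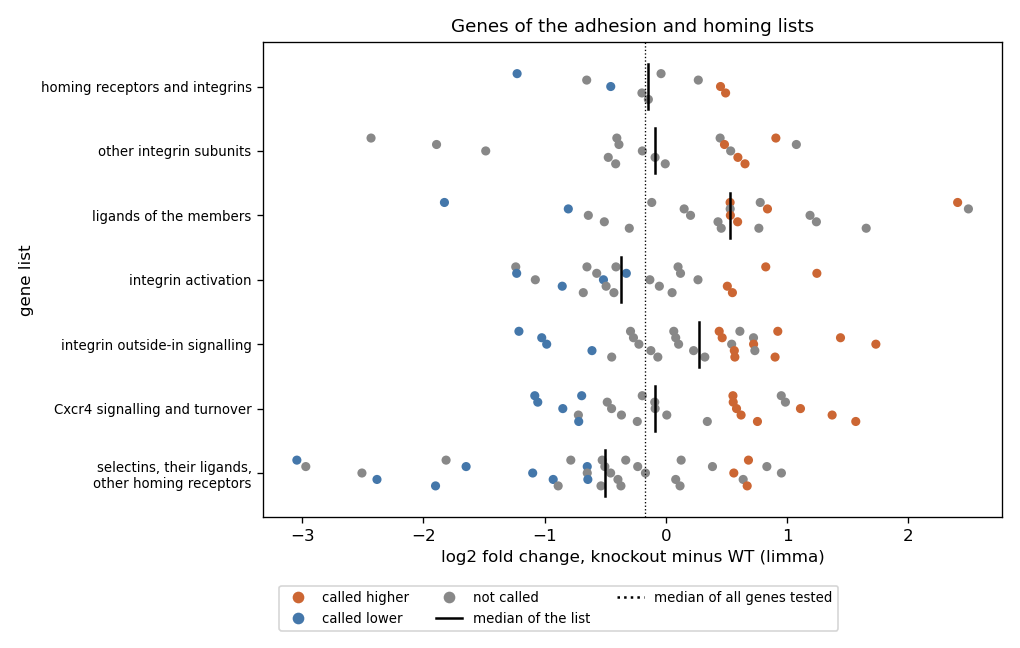
Log2 fold change (knockout minus WT, limma) of every tested gene in the 9 receptors and 6 related lists, coloured by call, with a black bar for each list's median and a dotted line for the median of all genes, -0.17. The ligand list has the highest median, 0.53, and the selectin and homing list the lowest, -0.50. These medians include genes with few reads, since 8 of 22 ligand genes and 19 of 33 homing genes reached a mean of 50.

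The receptor genes are also read in mature blood cells, and the part of these cells in the results was not tested. Over all tested genes 10.3% were called higher and 10.9% lower. The higher calls of monocyte and macrophage markers and the lower calls of T and NK cell markers were near these shares. For neutrophils, which carry much Itgam and Itgb2, 4 of 11 markers were higher and 5 lower, with summed levels of 11339 to 12407 normalized reads in WT and 9622 to 10410.1 in the knockout. For monocytes and macrophages 1 of 12 markers was higher, Vcam1 itself, and the sums were 2735 to 3097 and 3383 to 3807. Vcam1 is part of these sums, with means of 1287 in WT and 1857 in the knockout. For B cells, which carry Itgal and Cd44, 6 of 10 were higher and the sums were 1051 to 1099 and 2149 to 2394. T and NK cell markers had 1 of 10 lower and sums of 386 to 459.7 and 275 to 295. For megakaryocytes 2 of 8 tested markers were higher, Itgb3 and Itga2b, both integrin genes named above. The sums were 639 to 718 and 904 to 1192, and Gp1bb was listed at 0. Itgb3, with means of 144 in WT and 271 in the knockout, and Itga2b, with 329 and 505, are part of these sums. Erythroid markers had 5 of 10 higher and 1 lower, with sums of 1146 to 1206 and 2493 to 2569. Markers of eosinophils, basophils and mast cells had 4 of 9 higher and 1 lower, with sums of 12852 to 15913 and 19339 to 21287. Of 9 tested stromal and endothelial markers, 3 were higher, all of them collagen genes, with sums of 245 to 302 and 421 to 581. Stem and progenitor markers had 2 of 11 higher, with sums of 3917 to 3994 and 4280.2 to 4878.

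Over the 6 libraries, each of the 9 genes was set beside the 147 tested genes of the related lists by the Pearson correlation of log2(value + 1), and the closest gene is given for 8 of them. Cxcr4 was most like Parvg (r = 0.994), Cd44 most like Esam (0.990), Itga4 most like Cyth1 (0.990) and Itga6 most like Tln1 (0.987). Itgam was most like Itgax (0.950), Itgb2 most like Parvg (0.934), Itga5 most like Fut7 (0.896) and Itgb1 most like Fn1 (0.895). With 6 points that share 2 genotypes and 2 levels of depth, such values describe the libraries only.

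The authors' deposited table gives its own comparison of the genotypes. In the authors' deposited table Cd44 has a log2 fold change of -1.22 (adjusted p = 4.75e-17), Itgal 0.46 (0.00683), Itga6 0.48 (0.0191) and Cxcr4 -0.45 (0.0218). Itgb1 stands at 0.26 (0.0895), Itgb2 at -0.19 (0.165), Itga4 at -0.14 (0.260), Itgam at -0.55 (0.364) and Itga5 at -0.04 (0.914) in the authors' deposited table, which was made from the same libraries.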

How the data were processed

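The members, gene lists and tests were chosen with earlier results of these data known. Size-selected ribosome footprints were sequenced after RNase digestion, per the labels' protocols. The authors deposited a signal per gene, which the values show to be read counts over 1 size factor per library, since 99.97 to 99.98% of them came out as whole reads (tolerance 0.05). The genome build is GRCm39 per the submitters' processing notes. Aligner, counter, annotation and use of strand: not given in the sources used here. The authors' log2 fold changes and p-values come with the deposited table.

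Dividing by the step recovered the reads. Of the 56748 genes 5 had values off their library's step and were left out. limma 3.58.1 (R 4.3.3) was fitted on log2(value + 1) to genes whose mean reached 1 normalized read, using a variance trend and no term but genotype, and a gene was called where the Benjamini-Hochberg adjusted p was under 0.05. Fold changes on this scale understate those of low genes. Floors of 3 reads and counting errors cover counting only, since reads carry no molecular identifiers. Folds of genes are ratios of means, those of subunit ratios come from mean log2 ratios, and the latter were compared with exact permutation tests over 20 regroupings. The named genes were the 9 receptors, Mov10, Kit and, per list, at most 4 higher and 4 lower calls with the smallest p. Fgb, Arrb2, Grk6 and Gng2 were added after their values were seen. Alternatives were a replicate block, edgeR 4.0.16, DESeq2 1.42.0, upper-quartile scaling, library totals, cyclic loess, no filter, a mean of at least 50, a pseudocount of 0.1, no variance trend, robust empirical Bayes and each library left out. The limma and edgeR fits were run on simulated counts with the same extra spread for every gene and few changed genes. Such counts do not cover the spread, the many calls or the trends with abundance of these libraries.

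Same-numbered libraries did not deviate together (r = -0.029, -0.0055 and -0.021 over 6307 genes). With so few libraries this cannot exclude that the numbers pair them by design. Figures were drawn with matplotlib 3.10.9. One gene of the related lists is counted but not reported by name here, nor is the likeness that rests on it.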

Additional observations from a re-analysis of the deposited data

How the results depend on the processing

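Cd44 kept its direction and its call in all 17 alternatives, and edgeR and DESeq2 made the same number of calls as limma, 2 receptor genes higher and 2 lower. Of the 9 genes 1 was called higher with the replicate block, without a filter and with a pseudocount of 0.1, and 0 with library totals, after cyclic loess and without a variance trend in limma, where 0, 1 and 1 passed at an unadjusted p under 0.05. Lower calls numbered 1 with upper-quartile scaling, without a filter and without a variance trend, and 4 with library totals and after cyclic loess. With 1 library left out at a time, 0 to 2 were called higher and 1 to 3 lower; limma called 0 higher without WT replicate 1, 2 or 3, where 3, 2 and 2 passed at an unadjusted p under 0.05. Over all genes these fits called 836 to 2090 higher and 403 to 2497 lower, and the lower calls were 2877 with library totals and 1158 with a mean of at least 50. Library totals moved the median log2 fold change of all genes from -0.17 to -0.39, and cyclic loess moved it to -0.00094. The log2 fold change of Itga5 turned to 0.0024 without WT replicate 1 and to 0.0266 without knockout replicate 1, in a range of -0.113 to 0.0266 with 1 library left out, and that of Itgb1 to -0.14 after cyclic loess. The cause of these moves was not tested. With a mean of at least 50 Itgam, whose mean is below that, could not be fitted. Itgam had the fewest reads of the 9 genes, 11 to 25 in each knockout library.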
